A study of Mus musculus with 4 samples.

Results

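The genes described here carry neuregulin, epidermal growth factor, insulin-like growth factor and insulin signals at the cell surface of the heart. They were taken by gene symbol from a table of 19505 named genes, and all 10 of the 10 symbols looked for were found, each on 1 probe set. They are the ERBB ligands Nrg1 and Hbegf, the ERBB receptors Egfr, Erbb2, Erbb3 and Erbb4, the growth factor Igf1, the receptors Igf1r and Insr, and the docking protein Irs1. Heart RNA came from outbred ICR (Jcl:ICR) mice injected on postnatal day 1 with either a viral vector carrying Tbx6 or phosphate-buffered saline (PBS), and was hybridised to Clariom S arrays. The groups were PBS at day 7 after injection, Tbx6 at day 7, PBS at day 30 and Tbx6 at day 30, with 1 array in each. All pups were under isoflurane at the injection, which one field of the labels places beneath the dorsal skin and other fields in the heart. The sources used here do not give the vector's promoter or how many hearts went into a sample. No vector without Tbx6 was among the arrays, so vector and gene cannot be told apart.

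Neuregulin-1 is released by endothelial and endocardial cells of the heart and binds ERBB4 and ERBB3 on neighbouring cells. ERBB2 binds no ligand of its own and serves as the partner of the ligand-bound receptors, while ERBB3 has little kinase activity and signals through its partners. IGF1 binds its receptor IGF1R, a close relative of the insulin receptor, and both phosphorylate IRS docking proteins that recruit phosphatidylinositol 3-kinase (PI3K) and, through it, AKT. In the newborn heart these pathways are known for their part in growth of cardiomyocytes, and ERBB signalling in particular for the proliferation that stops in the weeks after birth.

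Values are the authors' SST-RMA expression values, taken as log2. A reading is called at background where it did not exceed the highest of the 23 background probe sets of its own array, which lay between 5.77 and 6.05. All 7 measured cardiomyocyte markers, among them Myh6, Tnnt2 and Ryr2, were above background on every array. Of the skeletal muscle markers only Ckm, which heart muscle also expresses, was above background. The PBS array of day 7 stood apart, with 3 of 6 lung epithelial markers above background there, Scgb1a1 at 12.89 among them (at background on the other 3 arrays), and with the brown fat gene Ucp1 at 11.92 against 5.69 to 8.34. The day changes of the tested genes among the 10 are therefore also given without it. Fits that leave an array out have day as the only term, so part of the difference between injections enters their day change. The differences between injections at day 7 have this PBS array alone on the PBS side.

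Between day 7 and day 30 3 of the receptors, the growth factor Igf1 and the docking protein fell, and the neuregulin gene did not pass the test. Irs1 fell by 2.11 on the log2 scale (SE 0.26), Erbb4 by 1.27 (SE 0.26), Igf1 by 1.10 (SE 0.29) and Igf1r by 1.01 (SE 0.24), and Erbb2 fell by at least 0.68. The values come from a limma fit with injection and day as terms, in which the 2 arrays of a day, 1 per injection, are the replicates. Of the 10 genes, 7 reached the expression filter and were tested, and each of the 7 read above the filter of 5.30 on every array. Of these, 5 passed a Benjamini-Hochberg adjusted p of 0.05 as lower at day 30 and 0 as higher, and at an unadjusted p of 0.05 these counts were 6 and 0. Over all 9753 tested genes, 12.1% were lower and 14.2% were higher by the adjusted rule, 19.1% and 20.4% were so at an unadjusted p under 0.05, and the median change was -0.02. The fit leaves 1 residual degree of freedom, so its SE leans on the spread of other genes, and in bulk tissue fewer cells of a type and less RNA per cell cannot be told apart.

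**Figure D1:**
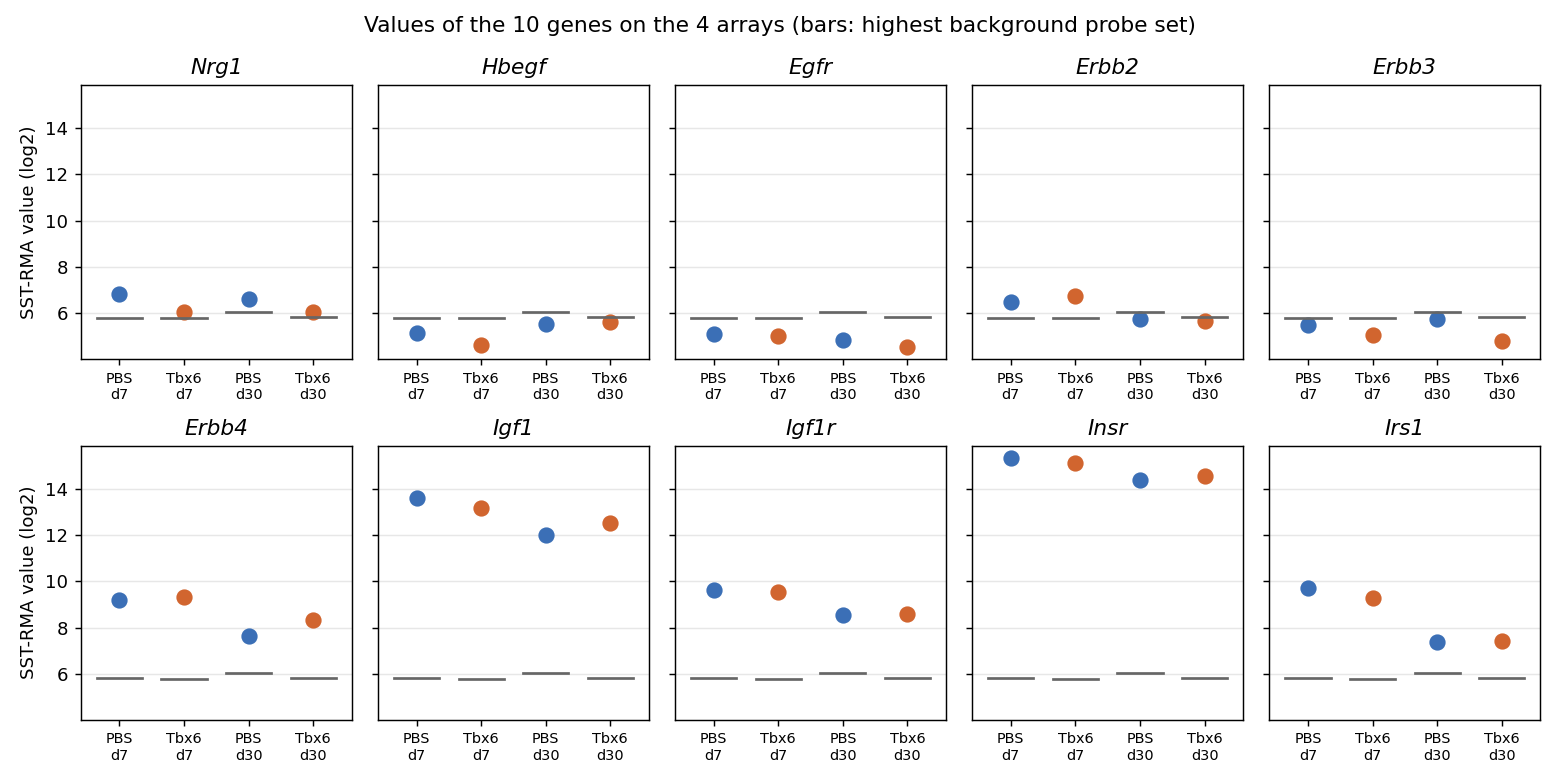
Each panel plots 1 gene, with the SST-RMA value (log2) of each of the 4 arrays as a point (blue PBS, orange Tbx6) and the array's highest background probe set as a grey bar. Hbegf, Egfr and Erbb3 lie under the bars on all 4 arrays, and Irs1 lies between 9.29 and 9.72 at day 7 and between 7.36 and 7.43 at day 30.

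Irs1 encodes the docking protein through which both insulin and IGF1 receptors engage PI3K, and it showed the widest gap between days among the 7. At day 7 its value was 9.72 with PBS and 9.29 with Tbx6, and at day 30 it was 7.36 with PBS and 7.43 with Tbx6. The days did not overlap, and the arrays of day 30 differed by 0.07. The day 7 level was 4.32-fold the day 30 level (limma adjusted p of 0.00078), and 136 of the 9753 tested genes had a lower change. The adjusted p ranged from 0.000849 to 0.0097 when each array was left out in turn with day as the only term, and the change was -1.89 (adjusted p of 0.00237) without the PBS array of day 7.

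Igf1r, the receptor tyrosine kinase for IGF1 and IGF2, read 9.62 and 9.54 at day 7 and 8.54 and 8.60 at day 30, after PBS and Tbx6 respectively. Arrays of the same day differed by 0.09 and 0.06, and the day 7 level was 2.01-fold the day 30 level (limma adjusted p of 0.0174). Without the PBS array of day 7 the change was -0.97 (adjusted p of 0.0408). It missed the threshold without the PBS array of day 30 (-0.98, adjusted p of 0.0672) and without the Tbx6 array of day 30 (-1.04, adjusted p of 0.0608).

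Insr encodes the insulin receptor. The PBS arrays gave 15.33 at day 7 and 14.39 at day 30, and the Tbx6 arrays 15.13 and 14.58. Both arrays of day 7 were higher than both of day 30, by 1.68-fold on average, but the change of -0.75 (SE 0.25) did not pass (limma adjusted p of 0.0593). It did pass by limma after quantile normalisation (-0.97, adjusted p of 0.031) and among genes above background on all arrays (0.0425). The same held with an intensity trend in the variance (0.00973) and with day as the only term (0.044). It did not pass with every gene tested (0.107), after median centring (0.0639) or with the mean of probe sets (0.0594). Without the PBS array of day 7 the change was -0.65 (adjusted p of 0.144).

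Igf1 encodes the growth factor itself, made in the heart by cells of the connective tissue and macrophages among others. Its readings at day 7 were 13.58 with PBS and 13.16 with Tbx6, and those at day 30 were 12.01 with PBS and 12.53 with Tbx6. Day 7 was again higher on both arrays, by 2.15-fold on average (limma adjusted p of 0.0247), but the drop differed in size, at -1.57 between the PBS arrays and -0.63 between the Tbx6 arrays. The call was lost without the PBS array of day 7 (-0.89, adjusted p of 0.0806) and without the PBS array of day 30 (-0.84, adjusted p of 0.123).

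Erbb4 encodes the neuregulin receptor of cardiomyocytes. It stood at 9.17 (PBS) and 9.33 (Tbx6) on the arrays of day 7 and at 7.63 (PBS) and 8.33 (Tbx6) on those of day 30. The days did not overlap, and the day 7 level was 2.41-fold the day 30 level (limma adjusted p of 0.00895). The PBS arrays differed by -1.55 between days and the Tbx6 arrays, which leave out the PBS array of day 7, by -0.999. The changes that follow mix injections, as those fits had day as the only term. Without the PBS array of day 7 the change was -1.35 (adjusted p of 0.0268), and without the PBS array of day 30 it was -0.92 and no longer passed (adjusted p of 0.0808).

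Erbb2, the shared partner receptor, was above background at day 7 only, where the PBS array read 6.48 and the Tbx6 array 6.75. At day 30 it read 5.72 and 5.65, both at background, so the change is a bound of at least 0.68 lower, or at least 1.61-fold. On the deposited values the fitted change was -0.93 (limma adjusted p of 0.026). Without the PBS array of day 7 it was -1.07 (adjusted p of 0.0286). Leaving out any of the other 3 arrays raised the adjusted p to between 0.0763 and 0.0978.

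Nrg1, the endothelial ligand of ERBB4 and ERBB3, read 6.82 and 6.59 on the PBS arrays of day 7 and day 30, and 6.04 and 6.02 on the Tbx6 arrays. All 4 readings were above background, those after Tbx6 by less than 0.3. The change between days was -0.12 (SE 0.24, limma adjusted p of 0.743). Between the PBS arrays it was -0.23 and between the Tbx6 arrays -0.02. With day as the only term it was 0.27 without the PBS array of day 7 and 0.16 without the Tbx6 array of day 30. Those fits take in part of the difference between injections, so the turn of sign is not a measure of the day change alone.

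The other 3 genes could not be compared. Hbegf, the heparin-binding ligand of EGFR and ERBB4, read 5.12 (PBS) and 4.62 (Tbx6) at day 7, with its highest reading, on the Tbx6 array of day 30, still under that array's 5.82. Egfr, the receptor of epidermal growth factor, read between 4.55 and 5.11, and Erbb3 between 4.77 and 5.75. Every reading of the 3 genes was at background, so no difference between them was measured. Erbb3 is also a receptor of Schwann cells, and the glial markers Sox10, S100b and Foxd3 were likewise at background on every array, while Cdh19 was above it on both arrays of day 30.

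**Figure D2:**
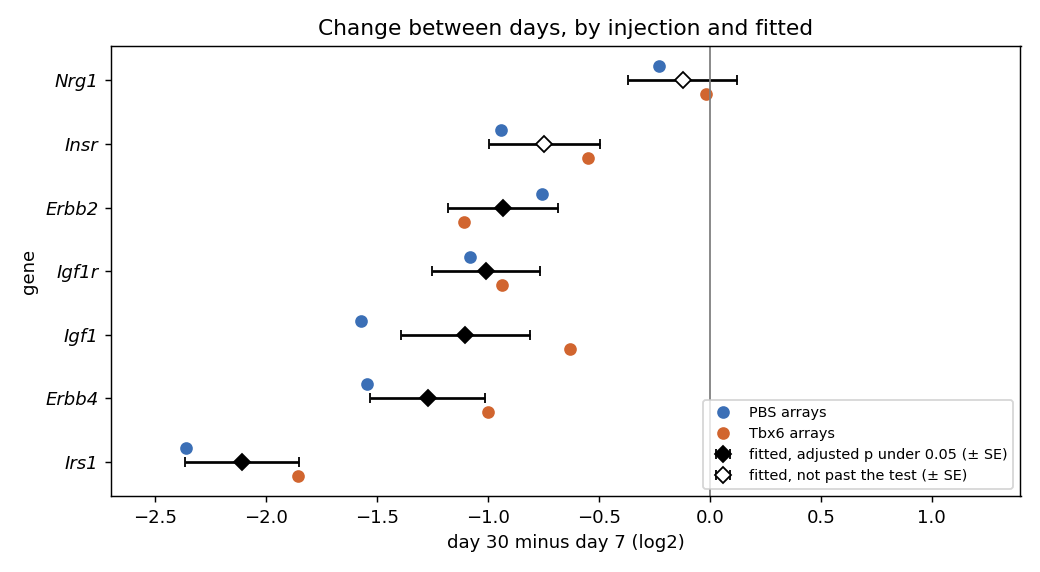
Horizontal positions are the change from day 7 to day 30 (log2) for the 7 tested genes: circles give the difference between the PBS arrays (blue) and between the Tbx6 arrays (orange), and diamonds the fitted change ± SE, filled where the adjusted p was under 0.05. Every circle lies below 0, though the Tbx6 circle of Nrg1 (-0.02) is almost on it. Both day 30 readings of Erbb2 were at background, so its circles and diamond show the deposited values and not the smaller bound of at least 0.68.

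Promoter windows of GRCm38.p6 from RefSeq were at hand for 6 of the 10 genes. The 250 bases before the annotated gene are shown for the 3 genes that fell and whose window ends where the gene begins. Those of Erbb4 and Igf1 start inside the annotated gene and are not printed. The windows are Irs1 at chr1:82291440-82291689 on the minus strand, Igf1r at chr7:67952007-67952256 on the plus strand and Erbb2 at chr11:98412234-98412483 on the plus strand. Capitals mark matches on either strand to the GC box GGGCGG, the TATA box TATAAA, the E-box CACGTG and the CCAAT box CCAAT.
Irs1: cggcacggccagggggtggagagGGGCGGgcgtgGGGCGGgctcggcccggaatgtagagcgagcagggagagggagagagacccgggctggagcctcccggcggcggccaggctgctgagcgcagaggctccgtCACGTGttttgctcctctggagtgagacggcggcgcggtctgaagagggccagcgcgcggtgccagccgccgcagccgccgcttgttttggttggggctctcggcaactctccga
Igf1r: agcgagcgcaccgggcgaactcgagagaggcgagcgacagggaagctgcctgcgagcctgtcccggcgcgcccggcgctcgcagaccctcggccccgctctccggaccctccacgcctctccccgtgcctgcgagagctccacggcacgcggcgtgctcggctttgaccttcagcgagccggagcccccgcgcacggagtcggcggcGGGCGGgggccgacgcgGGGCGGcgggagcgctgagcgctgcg
Erbb2: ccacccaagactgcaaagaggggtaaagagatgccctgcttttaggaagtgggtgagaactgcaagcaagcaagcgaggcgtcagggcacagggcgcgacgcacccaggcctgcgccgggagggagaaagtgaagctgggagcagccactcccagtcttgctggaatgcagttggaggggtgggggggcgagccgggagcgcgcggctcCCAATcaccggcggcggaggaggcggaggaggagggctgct
GC boxes occurred 2 times each in the Irs1 and Igf1r windows and 0 times in that of Erbb2, and 32.7% of all 32851 windows of this length held at least 1. The Irs1 window also held 1 E-box (6.02% of all windows) and the Erbb2 window 1 CCAAT box (33.8%). None of the 3 held the TATA box letters, which 12.4% of all windows did. The share of G and C was 72.4% for Irs1, 77.6% for Igf1r and 66.0% for Erbb2, against a median of 52.4% over all windows. These are descriptions of the reference strain's sequence, and no measurement of binding was made.

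The comparison of injections asked whether hearts given Tbx6 differed from those given PBS. Nrg1 was lower after Tbx6 on both days, by 0.78 at day 7 and by 0.57 at day 30, and Erbb4 was higher on both, by 0.16 and 0.70. By limma's fit with day as a term, 0 of the 7 tested genes and 0 of all 9753 (0%) passed the adjusted threshold, while 421 genes (4.32%) had an unadjusted p under 0.05. Of the 7, Nrg1 alone was among the latter, with a fitted difference of -0.67 (SE 0.24, unadjusted p of 0.0236 and adjusted p of 1 by limma). At each of the 7 alternative settings its adjusted p was also 1. The other 6 had fitted differences between -0.18 (Irs1) and 0.43 (Erbb4).

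On single days, with 1 array on each side and no test, a difference of at least 1.5-fold was seen for Nrg1 at day 7 and for Erbb4 at day 30, that is 1 of the 7 tested genes on each day. Over all tested genes 15.6% differed by that much at day 7 and 13.2% at day 30. Igf1, Irs1, Insr and Igf1r were lower after Tbx6 at day 7 and higher at day 30. For Igf1 the differences were -0.42 and 0.52, for Irs1 -0.43 and 0.07, for Insr -0.20 and 0.19 and for Igf1r -0.09 and 0.06. Erbb2 differed by 0.28 at day 7, and its readings of day 30 were too low to compare.

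**Figure D3:**
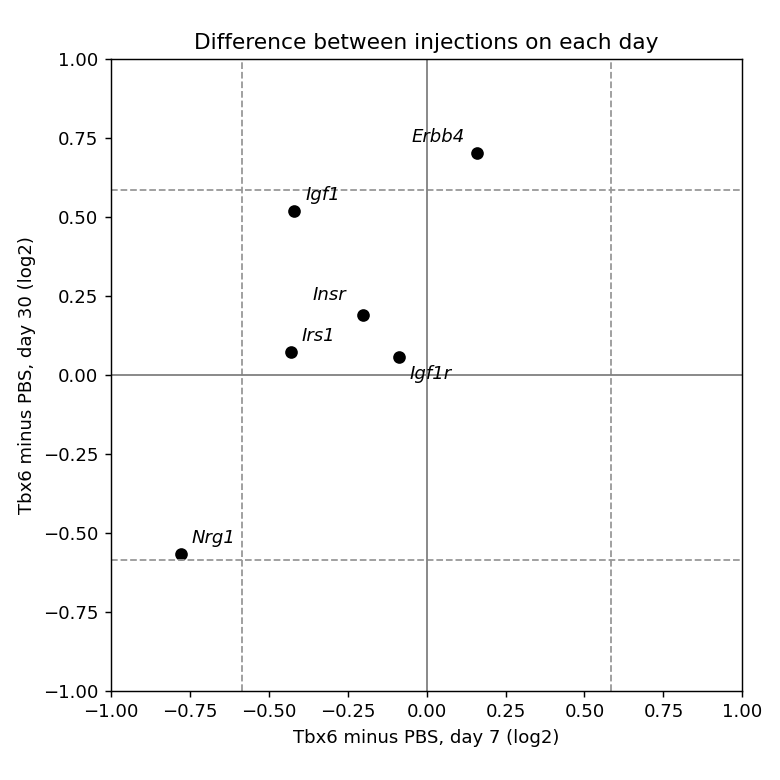
Each point is 1 of the 6 genes above background on all 4 arrays, placed by its difference between Tbx6 and PBS (log2) at day 7 (horizontal) and at day 30 (vertical), each from 2 single arrays. Dashed lines mark 1.5-fold: Nrg1 lies beyond it at day 7 (-0.78) and Erbb4 at day 30 (0.70).

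Markers of other cells moved over the same arrays, and their part in these results was not tested. The 4 adipocyte markers that rose above background on any array were, as Igf1 was, lower on the Tbx6 array of day 7 and higher on that of day 30 than on the PBS array. Adipoq read 7.98 (PBS) and 6.08 (Tbx6) at day 7 and 7.49 (PBS) and 9.83 (Tbx6) at day 30. The summed level of the 6 adipocyte markers on the log2 scale was 17.14 (PBS) and 17.07 (Tbx6) at day 7 and then 16.46 and 16.72, with Plin1 and Lep at background throughout. That sum was nearly all Fabp4, which alone read 17.10 (PBS) and 17.06 (Tbx6) at day 7 and 16.46 and 16.70 at day 30. The endothelial list, from cells that make neuregulin, had a summed level of 16.71 and 16.61 at day 7 and 15.83 and 15.92 at day 30. Cdh5 was the largest part, reading 15.99 and 15.80 at day 7 and 14.93 and 15.04 at day 30. Of the 7 measured endothelial markers 2 fell between days, where Cdh5 fell by 0.91 and Kdr fell by 1.03, and 1, Flt1, rose by 1.94. Over all tested genes 12.1% were lower and 14.2% higher, the shares to set beside these counts and those that follow. Of 5 fibroblast markers 4 fell, led by Col1a1 (by 3.57), and the list's summed level went from 19.07 and 19.12 to 18.50 and 18.49. The largest part of that sum was Dcn, which did not pass and read 18.36 and 18.47 at day 7 and 18.34 on both arrays of day 30. Of 5 macrophage markers 4 rose, with summed levels of 10.58 and 10.81 at day 7 and 12.12 and 12.31 at day 30. At day 7, 4 (PBS) and 3 (Tbx6) of these 5 were above background. All 4 tested proliferation markers fell, and their list's summed level was 11.46 and 11.51 at day 7 and 7.18 and 7.64 at day 30. Of the 5 measured, only 1 (PBS) and 2 (Tbx6) were above background at day 30, so those later sums are partly background readings. None of the 7 cardiomyocyte markers passed the test. Myh6 reached 19.93, the highest value in the table, and Myh6, Tnnt2 and Myl2 read at least 19.75, so these could hardly show a rise. Ryr2, Ttn and Tnni3 read lower, between 15.98 and 17.66, and did not pass either.

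Of the other genes of these pathways, 122 were in the table, of which 89 were tested and 32 were at background on every array. Of the 89, 13 fell and 12 rose between days, with a median change of -0.24, against 12.1% lower and 14.2% higher over all genes. Without the PBS array of day 7, 10 were lower and 9 higher. When each array was left out in turn with day as the only term, 6 of the 13 and 5 of the 12 passed every time. These were Igf2, Adam19, Grb10, Ptpn1, Spry2 and Dusp5 among the lower, and Pik3r1, Tsc2, Slc2a4, Slc2a1 and Grb14 among the higher. For the others, except Ptprf, the highest adjusted p of these fits is given below with the array left out to reach it. That array was not the only one that mattered for Igf2r, Htra1, Stc2, Cd9, Foxo3, Lrig1, Socs2 and Ptprj, which missed the threshold without other arrays as well.

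Among the remaining ligands and receptors, Igf2, the fetal growth factor that also binds IGF1R, read 17.71 and 17.46 at day 7 and 12.93 and 12.73 at day 30. Its fall of 4.76 (SE 0.24, limma adjusted p of 2.1e-05) took it in the same direction as Igf1. Igf2r, which clears IGF2 from the cell surface, fell by 0.93 (SE 0.24), with an adjusted p of up to 0.0885, reached without the Tbx6 array of day 30. Of 8 other ERBB ligands 6 were at background on every array, among them Egf, Tgfa and Ereg. Nrg4 rose above background only on the Tbx6 array of day 30 (6.06), and Btc, betacellulin, read between 6.05 and 6.46 and differed by 0.05 between days (SE 0.27).

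Of 9 tested genes that bind IGFs or free them, 2 fell and 1 rose, against 12.1% lower and 14.2% higher over all genes. Igfbp4, an IGF-binding protein, fell by 1.16 (SE 0.24; adjusted p of 0.055 without the Tbx6 array of day 30). Htra1, a protease that cleaves IGF-binding proteins, fell by 0.83 (SE 0.24; up to 0.184 without the same array, and past the threshold neither then nor with every gene tested). Stc2, an inhibitor of the protease that cleaves IGFBP4, rose by 1.06 (SE 0.24; up to 0.0983 without the PBS array of day 30). Igfbp5 and Igfbp7, both far above background, changed by -0.28 and -0.48 and did not pass.

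Ligand shedding was led by Adam19, a metalloprotease that processes neuregulin and is known from heart development. The arrays of day 7 gave 10.59 (PBS) and 9.92 (Tbx6) and those of day 30 gave 7.12 and 6.89, and it fell by 3.25 (SE 0.25, limma adjusted p of 0.000108). The other sheddases Adam10 and Adam17 changed by -0.67 and 0.21 and did not pass. Cd9, a membrane partner of HB-EGF, rose by 1.04 (SE 0.24; adjusted p of 0.0655 without the PBS array of day 30). Bace1, which cleaves neuregulin and was picked out after its values were seen, differed between injections in the same direction as Nrg1, by -0.94 at day 7 and -0.48 at day 30, and did not pass (adjusted p of 1 by limma).

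By limma's adjusted p, 0 of 12 tested adaptors passed, with 3 lower and 2 higher at an unadjusted p under 0.05, against 19.1% and 20.4% of all genes. Irs2, the relative of Irs1, was looked up for that reason after the values were known. Its PBS arrays read 8.34 at day 7 and 7.13 at day 30, and its Tbx6 arrays 7.66 and 7.83. Its days overlapped, its change was -0.52 (SE 0.34, limma adjusted p of 0.291), and its differences between injections, -0.68 and 0.70, had opposite signs as those of Igf1 did.

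In the arm from PI3K to glucose uptake, 6 of 22 tested genes were higher and 1 was lower, against 14.2% higher and 12.1% lower over all genes. Slc2a4, the insulin-responsive glucose transporter GLUT4, went from 9.00 and 9.07 at day 7 to 12.21 and 11.98 at day 30, a rise of 3.06 (SE 0.25, limma adjusted p of 0.00012). Slc2a1, the transporter GLUT1, rose by 2.39 (SE 0.24), and Pik3r1, the regulatory subunit of PI3K, rose by 2.44 (SE 0.24). Pik3r3, another regulatory subunit, fell by 1.35 (SE 0.25; adjusted p of 0.0511 without the PBS array of day 30). The remaining calls were Tsc2, a brake on mTOR, which rose by 1.34 (SE 0.25), Rheb, its target, by 0.78 (SE 0.25; up to 0.181 without the PBS array of day 30, and past the threshold in none of the 4 such fits, nor with every gene tested or after quantile normalisation) and Foxo3, which passed on the deposited values but was above background on the Tbx6 array of day 30 alone (6.35; adjusted p of 0.236 without that array, and not past the threshold with every gene tested or with day as the only term). The catalytic subunits and kinases Pik3ca, Akt1, Akt2 and Mtor changed by -0.15, -0.53, 0.54 and -0.41 and did not pass.

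In the RAS-MAPK arm 2 of 10 tested genes fell and 0 rose (2 lower and 1 higher at an unadjusted p under 0.05 by limma, against 19.1% and 20.4% of all genes). Mapk7 (ERK5) fell by 1.10 (SE 0.24; adjusted p of 0.0627 without the PBS array of day 30) and Braf by 0.90 (SE 0.25; up to 0.14 without the Tbx6 array of day 30, and past the threshold in none of the 4 such fits nor with every gene tested).

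Of 26 tested brakes on the receptors, 5 fell and 4 rose, against 12.1% lower and 14.2% higher over all genes. The related adaptors Grb10 and Grb14, which bind and inhibit the insulin receptor, went opposite ways. Grb10 read 12.52 and 12.32 at day 7 and 10.87 and 11.10 at day 30, a fall of 1.43 (SE 0.25, limma adjusted p of 0.00468). Grb14 read 10.37 and 10.45 at day 7 and 11.81 and 11.89 at day 30, a rise of 1.45 (SE 0.24, limma adjusted p of 0.00371). Spry2, a feedback inhibitor of RAS-MAPK signalling, fell by 1.67 (SE 0.26). The phosphatase Ptprf fell by at least 0.62, with both readings of day 30 at background. It read 7.08 (PBS) and 6.02 (Tbx6) at day 7, and between the Tbx6 arrays its fall was at least 0.21. On the deposited values its change was -1.42, and -0.89 without the PBS array of day 7. The call for Ptprf was lost without that array, and also with either array of day 30 left out. The other brakes that passed were Dusp5 (-1.26) and the insulin receptor phosphatase Ptpn1 (-1.22), both lower, and, higher, Socs2 (1.11), Ptprj (1.02) and the ERBB inhibitor Lrig1 (0.88). Their highest adjusted p with an array left out was 0.178 for Socs2 and 0.181 for Lrig1, both without the Tbx6 array of day 30, and 0.107 for Ptprj without the PBS array of day 30. Lrig1 also missed the threshold with every gene tested and after quantile normalisation.

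**Figure D4:**
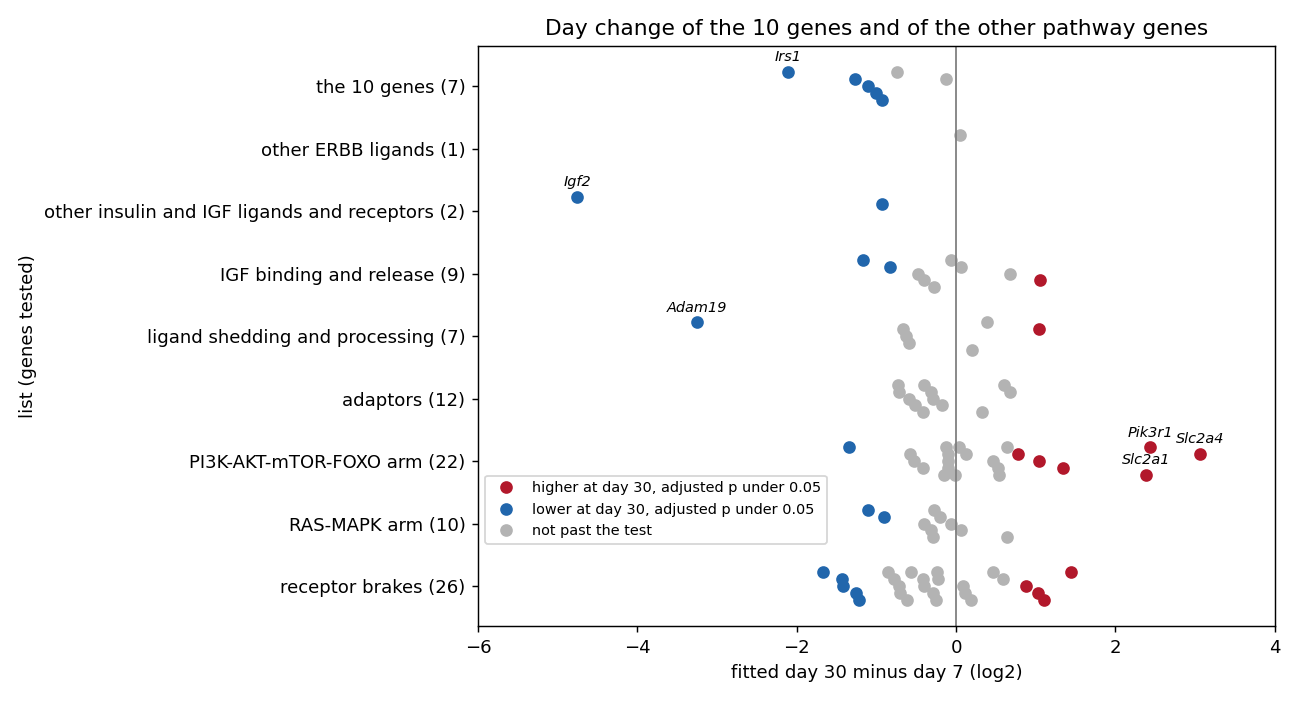
Each point is 1 tested gene, placed by its fitted change from day 7 to day 30 (log2) and by its list, with the number tested in brackets; blue marks genes lower and red genes higher at day 30 at an adjusted p under 0.05. Irs1 (-2.11) is the lowest of the 10 genes, Igf2 (-4.76) and Adam19 (-3.25) are the lowest of the other lists, and Slc2a4 (3.06) is the highest.

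Genes with a pattern close to those of Irs1 and Erbb4, the 2 members with the largest falls, were found by the Euclidean distance over the 4 arrays of log2 values centred on each gene's mean. For Irs1 these included Dbn1, the actin-binding drebrin (0.06), and Atad2 (0.07), and both readings of day 30 were at background for each. For Erbb4 they were Wdr6 (0.05), Golm2 (0.08) and the predicted gene Gm2897 (0.10). As 94 genes lay within 0.5 of Irs1 and 195 within 0.5 of Erbb4, 4 arrays do not single these out.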

How the data were processed

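Per the labels, total heart RNA was amplified and biotin-labelled for Clariom S Mouse arrays of 1 colour. The deposited log2 values come, per the labels and the submitters' notes on processing, from SST-RMA in Affymetrix Expression Console 1.4. The log base is not stated there, and base 2 was read from the values' range. The genome build is not given in the sources used here.

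All 4 columns were used without further normalisation. Of 28846 probe sets, 19572 carried 1 gene symbol in the platform annotation, and the probe set with the highest mean was kept per gene (19505 genes). Genes with a mean at or above the median (5.30) were tested (9753) with limma 3.58.1 (lmFit, eBayes, two-sided; additive terms for injection and day) under R 4.3.3, adjusting by Benjamini-Hochberg over all 9753 at a threshold of 0.05. A difference with 1 reading at background is a bound, the other side being raised to the array's highest background probe set. A summed level is the log2 of a list's summed linear values. Precision is limited by the number of arrays, which carry no depth. Each sample had its own combination of injection and day, so no heart can have served for more than 1. How many hearts each holds is not given in the sources used here. With 1 array per group, p-values rest on the spread between these arrays and of other genes, and not on animals within a group.

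The members and lists were chosen with earlier results of these data known. Named were all 10 members, in each list up to 4 called genes with the largest change, genes of lists of at most 6, and the 3 closest patterns to the 2 largest changes per direction. One of these 3 for Irs1 is not reported here. Other names complete a count or give context and were chosen after values were seen. Of the listed pathway genes, 14 were not matched and are not analysed here. The limma fit was tested on simulated arrays. Alternatives covered the filter, normalisation (quantile, median), variance trend, model terms, probe sets and leaving out arrays. Python 3.11.15, pandas 2.3.3, numpy 2.4.6 and matplotlib 3.10.9 made tables and plots.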

Additional observations from a re-analysis of the deposited data

Results flagged for a closer look

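For 4 genes above background on every array, the difference between Tbx6 and PBS was negative at day 7 and positive at day 30. The gap between the differences of the days was 0.94 on the log2 scale for Igf1, 0.50 for Irs1, 0.39 for Insr and 0.14 for Igf1r. With 1 array per group the difference between the days was not tested. All 4 differences at day 7 rest on the same PBS array, which stood apart in its lung and brown fat markers. The share of all tested genes with such a change of sign was not counted. Groups of 1 array allow no search for outliers within a group.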

How the results depend on the processing

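Across the 7 settings that kept all arrays, Irs1, Erbb4, Igf1 and Igf1r passed as lower at day 30 in all 7 and Erbb2 in the 6 that tested it, since the filter on background left it out. The number of members called was 5 or 6 in these settings, and 0 were called for injection. Leaving out 1 array with day as the only term, which also leaves fewer arrays to the fit, gave 1 to 4 lower members, and Irs1 passed in all 4 such fits. Over the same fits, lower pathway genes numbered 7 to 15 and higher ones 6 to 9, and all tested genes 555 to 981 lower and 693 to 1114 higher. The largest losses came without 1 of the arrays of day 30. The change of Nrg1, never past the test, ran from -0.51 to 0.27 when an array was left out. Those fits take in part of the difference between injections. Within an injection it was -0.23 between the PBS arrays and -0.02 between the Tbx6 arrays. Erbb2 at day 30 and Hbegf, Egfr and Erbb3 throughout were limited by signal at background. No paired analysis was possible because each group holds 1 array and shares fewer than 2 replicate numbers with any other, though the injection term already sets each day against the other within an injection.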
